A study of Saccharomyces cerevisiae with 6 samples.

Results

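The 35 genes described here make ergosterol, store or move it, or control its synthesis and the response to oxygen. They were chosen by name from the literature on the pathway, with earlier results of these data known. Each of the 35 was read by 1 probe set of its own, among the 5449 budding yeast genes named on the array. None of the 35 lies on chromosome X. The series set 3 arrays labelled wild type against 3 arrays labelled as a deletion of YPR045C, the gene of Thp3, a factor linked to the coupling of transcription elongation and mRNA maturation. All 6 RNAs came from the haploid laboratory strain BY4741, which is of mating type a and carries deletions in HIS3, LEU2, MET17 and URA3, so both groups share these. Cells were growing exponentially in the rich medium YPD, and 1 µg of total RNA per array was labelled with biotin. Whether the arrays of a group stand for separate cultures is not in the labels, nor is the number of clones of the deletion, so the p-values cover only the spread of these arrays, part of which may be technical.

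Ergosterol is the main sterol of fungal membranes. Acetyl-CoA is first built into mevalonate and isoprenoid units, which are joined to squalene. Squalene is oxidised and closed into lanosterol, and a chain of demethylases, reductases, an isomerase and desaturases turns lanosterol into ergosterol. Several of these steps need molecular oxygen and haem. The transcription factors Upc2 and Ecm22 raise the genes of the pathway when sterol is low, while Hap1 and Rox1 tie them to haem and oxygen. Budding yeast takes up sterol from outside mainly when oxygen is short.

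The labels were checked against the arrays first. THP3 (YPR045C, chromosome XVI), the targeted gene, stood at a log2 level of 9.51, 9.43 and 8.94 in the wild-type-labelled arrays and at 9.93, 9.82 and 9.10 in the deletion-labelled arrays (difference 0.33 ± 0.25, SE; limma adjusted p = 0.39; exact two-sided permutation p = 0.4). It was called higher in the deletion-labelled arrays with a replicate block (adjusted p = 0.025), with a term for the arrays numbered 3 (adjusted p = 0.015) and without those arrays (adjusted p = 0.020), though the numbers are not known to pair the arrays. The targeted gene was thus not lower where it is labelled as deleted, and every direction below rests on the labels. No table used here says where in the gene its probes lie, and a probe set outside the deleted part would check nothing. The markers of mating type a were high in both groups (STE2 at 13.55 and 13.59), and MFA1 among them was called higher in the deletion-labelled arrays (0.50 ± 0.05, limma adjusted p = 0.00065). Of the 4 markers of mating type alpha, MF(ALPHA)1 stood at 6.54 and 6.66, near the background limit of 6.48. STE3 stood at 6.64 and 7.10 and MF(ALPHA)2 at 7.16 and 7.52, further above that limit. STE3 was called higher (limma adjusted p = 0.048). SAG1, on chromosome X, stood at 10.39 and 9.16. Of the genes deleted in BY4741, URA3 (5.55 and 5.47) and MET17 (6.02 and 6.19) lay under the limit, and LEU2 (8.79 and 8.52) and HIS3 (11.56 and 11.60) above it.

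Levels are log2 of the quantile normalized intensity plus 16, and a difference is the mean of the deletion-labelled arrays minus that of the wild-type-labelled arrays, with the standard error of the fit. The background limit is the level under which 95% of the fission yeast probe sets on the same arrays lay. A gene is called at an adjusted p of at most 0.05 in limma's moderated test, with Benjamini-Hochberg adjustment over all 5449 genes. Over all genes 11.6% were called higher and 10.2% lower. Chromosome X fell as a whole, in 295 of its 316 genes, and of the 5133 genes elsewhere 12.3% were called higher and 5.05% lower. This balance turned with the scaling: the counts over all genes were 630 higher and 554 lower as reported, 479 and 635 with the values as deposited, 406 and 748 with centring on genes outside chromosome X, and 241 and 772 with median centring. The median difference of those 5133 genes was 0.04, which is the level to read the sterol genes against. In such bulk RNA, fewer cells with an mRNA and less of it per cell cannot be told apart.

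Of the 35 genes 5 were called higher in the deletion-labelled arrays, 1 was called lower and 29 were not called. The 5 are the late enzyme genes ERG2, ERG3 and ERG4, the sterol-binding gene HES1 and the regulator HAP1, and the 1 is the regulator SUT1. As shares these are 14.3% and 2.86%, near the 12.3% and 5.05% of genes outside chromosome X, so the number of calls alone sets the pathway apart in neither direction. With median centring 1 sterol gene was called higher and 2 lower, beside 4.70% and 9.14% of genes outside chromosome X, and with centring on those genes 4 and 2, beside 7.91% and 8.79%. The median difference of the 35 was 0.05. The groups did not overlap, with the deletion label higher, for 12 of the 35 and, with it lower, for 3. Outside chromosome X the same was found for 26.5% and 11.3% of genes. Differences ran from -0.45 (SUT1) to 0.56 (HES1).

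**Figure D1:**
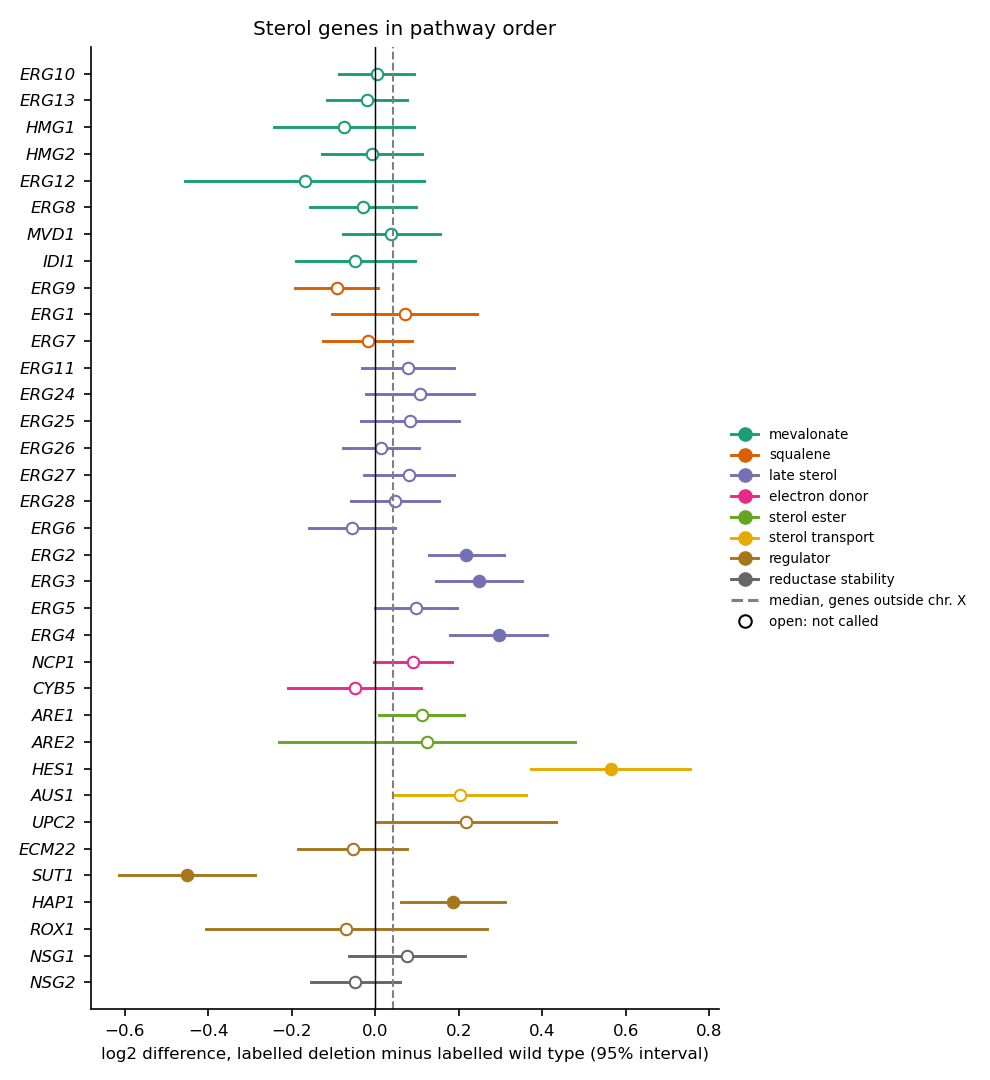
Log2 difference (labelled deletion minus labelled wild type, 3 arrays each) of the 35 genes from the first pathway step at the top to the regulators at the bottom, with 95% intervals, filled points for called genes and a dashed line at the median of genes outside chromosome X (0.04). The 8 mevalonate genes lie below the dashed line, 2 of them above 0, and 10 of the 11 late genes lie above 0. Of genes outside chromosome X, 3255 of 5133 lay above 0. SUT1 and HES1 are the lowest and the highest of the 35.

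The mevalonate genes, which form the early part of the pathway, did not pass the test: 0 of 8 were called at the adjusted threshold, 0 had an unadjusted p under 0.05, and the lowest adjusted p was 0.36 by limma. With 12.3% of genes outside chromosome X called higher and 5.05% lower, 0 of 8 alone does not set these genes apart. Their differences lay between -0.17 and 0.04, with a median of -0.02. ERG10, the acetoacetyl-CoA thiolase that opens the pathway, stood at 13.70, 13.71 and 13.67 in the wild-type-labelled arrays and at 13.70, 13.68 and 13.71 in the deletion-labelled arrays. These values overlap fully. ERG13, the HMG-CoA synthase, differed by -0.02 ± 0.04. HMG1 and HMG2 encode the HMG-CoA reductases, whose step is the main point of control of the pathway. HMG1 stood at 12.22, 12.17 and 12.36 and then at 12.11, 12.14 and 12.28, a difference of -0.07 ± 0.07. HMG2 stood at 11.93, 12.02 and 11.96 and then at 11.91, 11.95 and 12.03, a difference of -0.01 ± 0.05. The Insig homologues NSG1 and NSG2, whose proteins bind and stabilise Hmg2, differed by 0.08 ± 0.06 and -0.05 ± 0.04 and were not called.

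ERG8 (phosphomevalonate kinase), MVD1 (mevalonate diphosphate decarboxylase) and IDI1 (isopentenyl diphosphate isomerase) differed by -0.03 ± 0.05, 0.04 ± 0.05 and -0.05 ± 0.06. The mevalonate kinase gene ERG12 had the widest spread of the early genes, at 11.52, 11.47 and 11.21 in the wild-type-labelled arrays and 11.36, 11.32 and 11.01 in the deletion-labelled arrays. In both groups the array numbered 3 was the lowest, and each deletion-labelled array lay below the wild-type-labelled array of the same number. The difference was -0.17 ± 0.12 (limma adjusted p = 0.36). With a term for the arrays numbered 3 the same difference had a standard error of 0.04 and was called lower (adjusted p = 0.023), and with median centring it was -0.32 and called (adjusted p = 0.020; adjusted p 0.020 to 0.72 over 20 alternatives). The median-centred fit gave every sterol gene the same standard error of 0.11, so its adjusted p do not reflect the spread of each gene. The highest upper bound among the 95% intervals of the 8 early genes was 0.154, that of MVD1, so rises as large as the estimates for the 3 called late genes lay outside all 8 intervals. This does not set the early genes apart from the uncalled late genes. Among those only ERG24, with an upper bound of 0.238, reached the smallest of the 3 estimates, 0.218 for ERG2.

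Between the isoprenoid units and lanosterol stand squalene synthase (ERG9), squalene epoxidase (ERG1) and lanosterol synthase (ERG7). By limma 0 of these 3 was called (0 with an unadjusted p under 0.05), beside 12.3% higher and 5.05% lower of genes outside chromosome X. ERG9 came nearest, at 12.77, 12.77 and 12.84 in the wild-type-labelled arrays and 12.68, 12.70 and 12.72 in the deletion-labelled arrays. Its groups did not overlap, and the difference was -0.09 ± 0.04 (limma adjusted p = 0.17). With each array centred on its genes outside chromosome X, an alternative added after the data were seen, ERG9 was called lower at -0.15 (adjusted p = 0.046; adjusted p 0.046 to 0.37 over 20 alternatives). ERG1 and ERG7 differed by 0.07 ± 0.07 and -0.02 ± 0.04.

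In the late part, from lanosterol to ergosterol, 3 of 11 genes were called higher and 0 lower, beside 12.3% and 5.05% of genes outside chromosome X. The 3 act close to the end of the pathway. ERG4, the reductase of the last step, stood at 12.98, 13.04 and 13.02 in the wild-type-labelled arrays and at 13.31, 13.37 and 13.24 in the deletion-labelled arrays, from deposited intensities of 8355, 8354 and 8245 and of 10109, 10470 and 9681. All deletion-labelled arrays lay above all wild-type-labelled arrays, and the difference of 0.30 ± 0.05 is 1.23-fold (limma adjusted p = 0.0056). ERG3, the sterol desaturase that acts after the isomerase, stood at 12.73, 12.77 and 12.67 and then at 12.95, 12.98 and 12.99, a rise of 0.25 ± 0.04 or 1.19-fold (adjusted p = 0.0072). ERG2, the sterol isomerase, stood at 13.49, 13.49 and 13.46 and then at 13.68, 13.69 and 13.72. Its rise of 0.22 ± 0.04 is 1.16-fold (adjusted p = 0.0072), and here too the groups were apart.

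These are small steps on bright probe sets. Relative to the median of genes outside chromosome X the rises of ERG4, ERG3 and ERG2 were 0.25, 0.21 and 0.18. Without both arrays numbered 3, ERG3 and ERG2 narrowly lost the call (adjusted p = 0.0504 and 0.0513), while ERG4 kept it (adjusted p = 0.020). With median centring, which moved the median of all genes by -0.12, none of the 3 was called, although relative to the genes outside chromosome X they still stood at 0.26, 0.20 and 0.18. Their standard error in that setting was the common 0.11, against 0.04 to 0.05 as reported. Over the 20 alternatives the adjusted p reached up to 0.29 for ERG4, 0.52 for ERG3 and 0.63 for ERG2.

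**Figure D2:**
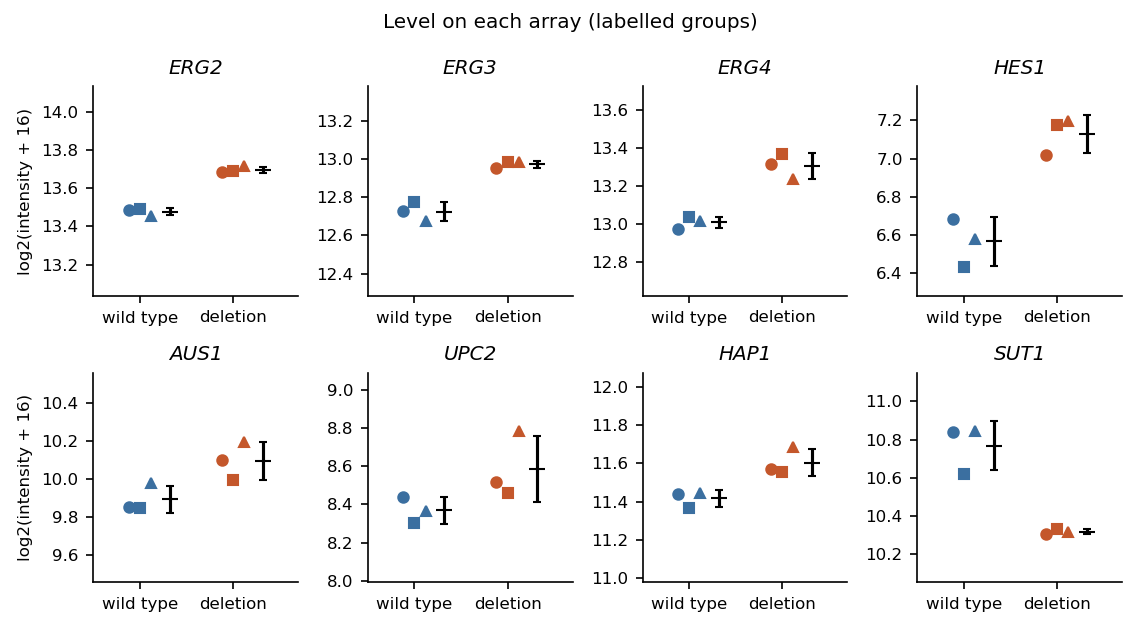
Log2 level of 8 sterol genes on each array, with the arrays numbered 1, 2 and 3 as circles, squares and triangles and the mean ± SD of each labelled group beside them; every panel spans an equal log2 range. The groups are apart in all 8 panels, higher under the deletion label for 7 genes and lower for SUT1. All 8 are among the sterol genes whose groups did not overlap (12 of the 35 higher and 3 lower). Outside chromosome X this was found for 26.5% and 11.3% of genes.

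The other 8 late genes were not called, and 7 of their differences were above 0. Their median was 0.08, against 0.04 for genes outside chromosome X, of which 3255 of 5133 lay above 0. ERG5, the desaturase of the sterol side chain, stood at 12.07, 12.13 and 12.08 in the wild-type-labelled arrays and 12.16, 12.21 and 12.20 in the deletion-labelled arrays, a difference of 0.10 ± 0.04 (limma adjusted p = 0.14). ERG24 (a sterol reductase) and ERG27 (the keto reductase of the demethylation complex) also had groups that did not overlap, with differences of 0.11 ± 0.05 and 0.08 ± 0.05. ERG11, the lanosterol demethylase that azole drugs inhibit, differed by 0.08 ± 0.05 and ERG25, the sterol methyl oxidase, by 0.08 ± 0.05, with overlapping groups. ERG26 and ERG28, a dehydrogenase and the scaffold of the same complex, differed by 0.01 ± 0.04 and 0.05 ± 0.04.

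ERG6 was the exception among the late genes. It encodes the sterol methyltransferase, whose step is absent from the animal pathway. It stood at 13.55, 13.56 and 13.61 in the wild-type-labelled arrays and at 13.47, 13.53 and 13.55 in the deletion-labelled arrays. Before rounding its groups did not overlap, by a narrow margin, with the deletion-labelled arrays lower. The difference of -0.06 ± 0.04 was not called (limma adjusted p = 0.40). NCP1, the reductase that passes electrons to the oxygen-dependent enzymes, differed by 0.09 ± 0.04 with groups apart (adjusted p = 0.15; called with a trended, robust spread, adjusted p = 0.0465, range 0.0465 to 0.89 over 20 alternatives). CYB5, cytochrome b5, which can do the same, differed by -0.05 ± 0.07.

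Early and late steps were set side by side by centring each gene on its mean over the 6 arrays and taking the median of each stage on each array. The late median stood at -0.08, -0.04 and -0.02 in the wild-type-labelled arrays and at 0.04, 0.04 and 0.06 in the deletion-labelled arrays. The early median stood at 0.02, -0.01 and -0.01 and then at -0.02, -0.02 and 0.02. Between the groups the late median moved by 0.094 and the early median by -0.003. The median difference of genes outside chromosome X, 0.04, lay between these values. Late minus early was -0.05 ± 0.05 (SD, n = 3) under the wild-type label and 0.05 ± 0.01 under the deletion label, a shift of 0.10 on the log2 scale. On this measure each deletion-labelled array lay above every wild-type-labelled one, and the shift was larger than the SD within either group. As the genes were chosen by name with earlier results known, no p is given for this shift. It was 0.06 with ERG9, ERG1 and ERG7 counted as late, and 0.15 with means over genes in place of medians.

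**Figure D3:**
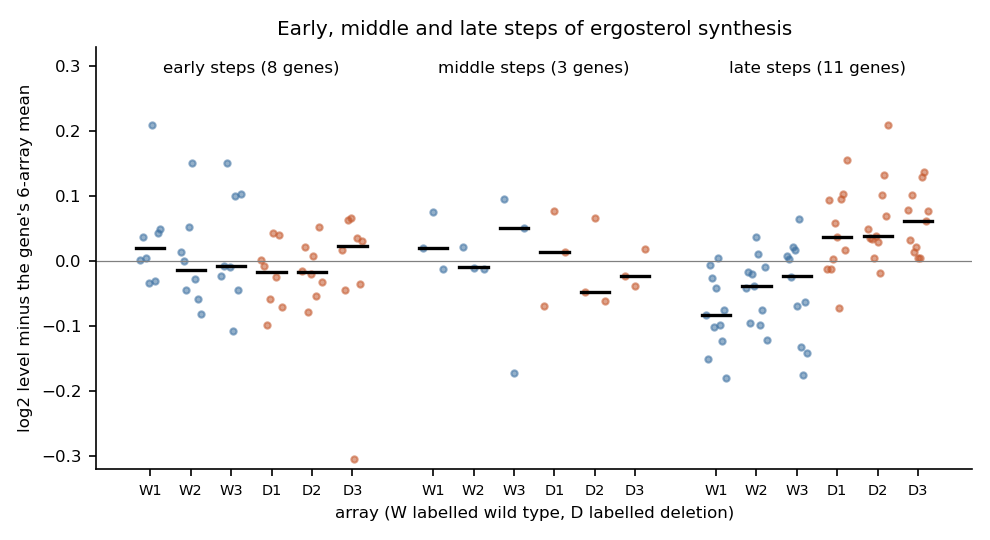
Each gene's log2 level minus its mean over the 6 arrays, by array and pathway stage, with bars at the stage median. The late medians lie below 0 on the 3 wild-type-labelled arrays (-0.08 to -0.02) and above 0 on the 3 labelled deletion (0.04 to 0.06), while the early medians lie between -0.02 and 0.02 in both.

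Of the 4 genes that store or move sterol, HES1 was called higher and the others were not called, beside 12.3% higher and 5.05% lower of genes outside chromosome X. HES1 belongs to the oxysterol-binding protein family, whose members carry lipids between membranes. The intensities deposited for it were 85.97, 68.53 and 81.24 in the wild-type-labelled arrays and 115.44, 140.71 and 129.45 in the deletion-labelled arrays, so every deletion-labelled array lay above every wild-type-labelled one. The difference of 0.56 ± 0.08 is 1.48-fold (limma adjusted p = 0.0029). In the wild-type-labelled arrays HES1 stood at 6.69, 6.43 and 6.58, around the background limit of 6.48, which leaves the size of the fold uncertain. It was called in all 20 alternatives (adjusted p from 1.78e-05, with median centring and its common standard error, to 0.045).

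AUS1 encodes a plasma membrane ABC transporter of sterol uptake. It stood at 9.85, 9.85 and 9.98 in the wild-type-labelled arrays and at 10.10, 9.99 and 10.20 in the deletion-labelled arrays. The groups were apart by a narrow margin, and the difference of 0.20 ± 0.07 was not called (limma adjusted p = 0.073). It was called with a term for the arrays numbered 3 (adjusted p = 0.017; range 0.017 to 0.74 over 20 alternatives). The sterol acyltransferase genes ARE1 and ARE2, which make the sterol esters of lipid droplets, were not called. ARE1 stood at 10.72, 10.71 and 10.67 and then at 10.83, 10.85 and 10.76, a difference of 0.11 ± 0.04 (adjusted p = 0.11). ARE2 differed by a like 0.12, but with a standard error of 0.15, since its level was lower on both arrays numbered 3 (8.88 and 8.94) than on the other 4 (9.19 to 9.39).

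Among the 5 regulators SUT1 was called lower and HAP1, at the border of the threshold, higher. Of genes outside chromosome X 12.3% were called higher and 5.05% lower. SUT1, a transcription factor that promotes sterol uptake, stood at 10.84, 10.62 and 10.85 in the wild-type-labelled arrays and at 10.31, 10.33 and 10.32 in the deletion-labelled arrays, from deposited intensities of 1886, 1581 and 1824 and of 1228, 1272 and 1223. The deletion-labelled arrays lay close together and below all others. The fall of -0.45 ± 0.07 is 1.37-fold (limma adjusted p = 0.0039). It was called in all 20 alternatives (adjusted p from 5.23e-07, with median centring and its common standard error, to 0.049). HAP1, the haem-responsive activator, is known to be interrupted by a transposon in the parent strain of BY4741, which weakens it. Its mRNA stood at 11.44, 11.37 and 11.45 and then at 11.57, 11.56 and 11.69, a rise of 0.19 ± 0.05 or 1.14-fold (adjusted p = 0.047). This call was borderline: it was lost when any 1 of the 6 arrays was left out and held in 8 of 20 alternatives (adjusted p 0.021 to 0.86).

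The paired sterol sensors were not called. UPC2 stood at 8.44, 8.30 and 8.37 in the wild-type-labelled arrays and at 8.52, 8.46 and 8.78 in the deletion-labelled arrays. Its groups were apart, with a difference of 0.22 ± 0.09 (limma adjusted p = 0.14), and it was called with the values as deposited (0.28, adjusted p = 0.046; range 0.046 to 0.30 over 20 alternatives). ECM22 stood between 9.98 and 10.11 and then between 9.94 and 10.07, a difference of -0.05 ± 0.05. ROX1, the repressor of hypoxic genes, varied more within the groups than between them, at 11.50, 11.25 and 11.56 and then at 11.16, 11.29 and 11.66 (difference -0.07 ± 0.14).

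Related genes were then compared within each array, over 6 pairs chosen after their values were seen. SUT2, the homologue of SUT1, moved the other way: it stood at 10.28, 10.36 and 10.34 in the wild-type-labelled arrays and at 10.61, 10.70 and 10.70 in the deletion-labelled arrays, a rise of 0.35 ± 0.05 (limma adjusted p = 0.0022). SUT2 minus SUT1 thus shifted by 0.80 between the groups, with no overlap. UPC2 minus ECM22 shifted by 0.27, NSG2 minus NSG1 by -0.12 and PDR11 minus AUS1 by 0.29, also with no overlap. HMG2 minus HMG1 and ARE2 minus ARE1 overlapped between the groups, with shifts of 0.07 and 0.01. An exact permutation test gave p = 0.1 for every pair without overlap (exact permutation p adjusted over the 6 pairs = 0.15). With 3 arrays per group this permutation test can give no lower p, so it cannot call any pair. The exact permutation p was 0.5 for HMG2 minus HMG1, and the exact permutation p was 0.9 for ARE2 minus ARE1. As the pairs were picked on these values, the shifts are a description only.

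The wider pathway was followed in lists of genes taken from general knowledge. Of 16 genes of farnesyl diphosphate and the other isoprenoid branches 3 rose and 2 fell. ERG20, the farnesyl diphosphate synthase that links the early genes to squalene, lies on chromosome X and was the only gene of the main chain examined here that does. It stood at 13.87, 13.84 and 13.94 in the wild-type-labelled arrays and at 13.36, 13.38 and 13.44 in the deletion-labelled arrays, a fall of -0.49 ± 0.05 (limma adjusted p = 0.00039). The median of chromosome X was -0.79. The genes on either side of ERG20 in the pathway, IDI1 and ERG9, differed by -0.05 and -0.09, as given above. The other fall was that of BET4, also on chromosome X, an enzyme that attaches geranylgeranyl groups to proteins (-0.90 ± 0.05). The rises were RER2 (0.34 ± 0.07) and SRT1 (0.37 ± 0.10), both prenyltransferases of dolichol synthesis, and the tRNA-modifying MOD5 (0.32 ± 0.07). Without the chromosome X genes 3 of 14 rose and 0 fell (21.4% and 0%), beside 12.3% and 5.05% of all genes outside chromosome X. The median was 0.05, against 0.04 for all those genes.

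Of 23 other genes of sterol transport and binding 4 rose and 4 fell. Outside chromosome X it was 4 and 2 of 21, beside 12.3% and 5.05% of all such genes. PDR11, the partner of AUS1 in sterol uptake, stood at 7.71 on average under the wild-type label and 8.20 under the deletion label (0.49 ± 0.11, limma adjusted p = 0.021). YSP2, which moves sterol at contacts of the endoplasmic reticulum with the plasma membrane, rose by 0.33 ± 0.05 and OSH2, of the same family as HES1, by 0.20 ± 0.05. NCR1 and NPC2 encode partners in moving sterol across the vacuole, and here NCR1 rose (0.29 ± 0.06) while NPC2 fell (-0.25 ± 0.05). The falls of PRY1 (-0.88 ± 0.08) and PRY3 (-1.02 ± 0.05) are those of chromosome X genes, but PRY2, on chromosome XI, fell too (-0.51 ± 0.07). Pry1 and Pry2 are secreted proteins that bind sterol. The median outside chromosome X was 0.04.

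Of 6 genes of sterol ester breakdown and acetylation 1 fell, the acetyltransferase gene ATF1 (-0.26 ± 0.06), with a list median of 0.07. Of 13 genes that degrade Hmg2 or Erg1 0 were called by limma (lowest adjusted p = 0.059; 5 with an unadjusted p under 0.05), and their median was 0.09. HRD1, the ligase that marks Hmg2 for destruction, differed by 0.10 ± 0.04. Of 11 other regulators of sterol and oxygen response SUT2 alone was called, and the median was -0.08. All these counts stand beside 12.3% called higher and 5.05% lower among genes outside chromosome X.

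Genes known or listed as hypoxic went both ways. Of 19 of them 4 rose and 6 fell, against 12.3% and 5.05% of genes outside chromosome X, where 4 and 4 of 16 were called. TIR1, a cell wall mannoprotein gene induced by low oxygen, stood at 10.43, 10.34 and 10.45 in the wild-type-labelled arrays and at 11.89, 11.88 and 11.89 in the deletion-labelled arrays, a rise of 1.48 ± 0.04 (limma adjusted p = 1.57e-05). Its relatives TIR2, TIR3 and TIR4 differed by 0.00, -0.10 and -0.10 and were not called. PLB2, a phospholipase gene, rose by 0.81 ± 0.05, and the hypoxic ADP/ATP carrier gene AAC3 by 0.25 ± 0.07. The hypoxic isoform genes CYC7 of cytochrome c (-0.62 ± 0.12) and COX5B of cytochrome oxidase (-0.30 ± 0.05) fell, as did the haem oxygenase gene HMX1 (-0.46 ± 0.05). ANB1 and DAN4 fell as well and lie on chromosome X. The median outside chromosome X was -0.04.

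Of 8 haem synthesis genes HEM2 rose (0.20 ± 0.05, limma adjusted p = 0.043), and HEM13, which Rox1 represses, differed by -0.05 ± 0.06. Of 10 respiratory genes activated by haem 1 fell, CYC1 on chromosome X, from a mean level of 12.34 to 11.34. The other 9 were not called and their median was 0.14. Both lists stand beside 12.3% called higher and 5.05% lower among genes outside chromosome X. Whether the levels of HAP1 and ROX1 bear on these lists was not tested.

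**Figure D4:**
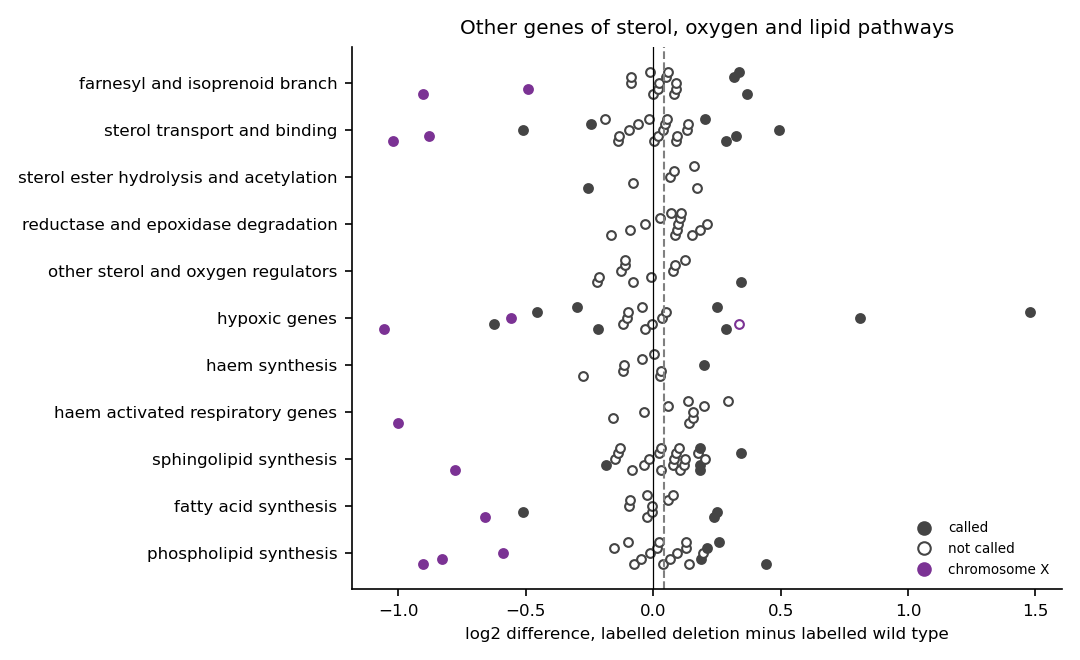
Log2 difference of each measured gene in 11 lists of sterol, oxygen and lipid genes, 1 row per list, filled where called and purple on chromosome X; height within a row only separates the points, and the dashed line is the median of genes outside chromosome X. Called falls include chromosome X genes and, in somewhat smaller number, genes elsewhere such as CYC7, FAA1 and PRY2. TIR1 at 1.48 is the highest point.

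The 6 called sterol genes kept the sign of their difference in all 20 alternatives, and 18 of the 29 uncalled ones changed sign in at least 1. HES1 and SUT1 were called in every alternative, ERG4 in 19, ERG2 and ERG3 in 18 and HAP1 in 8.

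**Figure D5:**
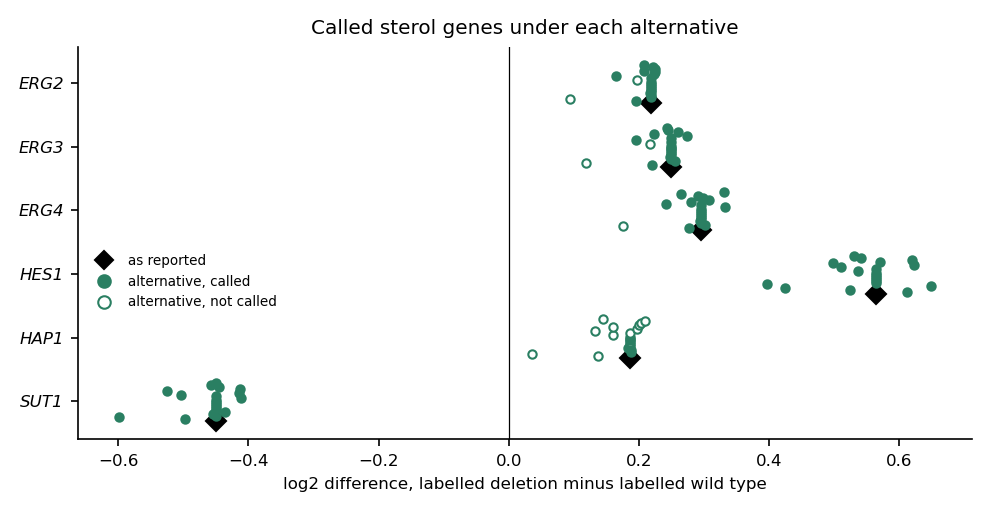
Log2 difference of the 6 called genes as reported (diamonds) and under each of 20 alternatives (circles, open where not called). HES1 and SUT1 have only filled circles, ERG4 has 1 open circle, ERG2 and ERG3 have 2 each, and 12 of the 20 circles of HAP1 are open.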

How the data were processed

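For each of 6 Affymetrix arrays the authors deposited a linear intensity for every probe set. Their probe summary, background correction and scaling are not given in the sources used here. Summed intensity ran from 17790552 to 18431446 per array, and no pair of arrays held identical values. Precision is limited by there being 3 arrays per group.

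Of 10928 probe sets 5498 were named with 1 S. cerevisiae gene through the platform's gene table, and symbols, chromosomes and older names were taken from the R64 gene table. For the 47 genes with several probe sets the brightest was used. Log2 medians of the arrays differed by 0.26, over the limit of 0.1 set for it, so all probe sets were quantile normalized. Then log2(intensity + 16) was fitted in R 4.3.3 with limma 3.58.1 (lmFit, eBayes) on the labelled group alone. Intervals are at 95%. The fit was tested on simulated data.

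The members, their stages and the lists were chosen with earlier results of these data known. All 35 members passed, as no filter on low values was used, and 0 of their values were missing. Named are all members, and up to 4 genes with the smallest p in each other list, with TIR2 to TIR4, HEM13, HRD1, AAC3, CYC7, COX5B, ANB1, PDR11, NPC2, OSH2, SRT1, INO4, NCR1, LAG1, SCS7, ITR1, CHO1 and CHO2 added after their values were seen. Promoter motifs were not searched and no sequence is printed, since no sequence was used here. The alternatives are named in the closing section.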

Additional observations from a re-analysis of the deposited data

How the results depend on the processing

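The alternatives comprised median centring, the values as deposited, quantile normalization over S. cerevisiae probe sets, pseudocounts of 1 and 64, a filter on dim genes, a trended robust spread, an unmoderated test, every probe set of a gene, a block for the array number, a term for the arrays numbered 3, both of those arrays left out, no chromosome X genes, and each array left out. Centring on genes outside chromosome X was added after the data were seen. Without chromosome X genes 761 genes were called (536 higher, 225 lower) in place of 1184. The count of called sterol genes, 6 of 35, was 3 with median centring and 3 without both arrays numbered 3, where the late genes called were 0 and 1. With median centring the fit gave every sterol gene the same standard error of 0.11. Of the early genes 1, ERG12, was called with median centring, with the replicate block and with a term for the arrays numbered 3. Of the middle genes 1, ERG9, was called with centring on genes outside chromosome X. With each array left out in turn, 830 to 983 genes, 5 sterol genes, 0 early, 0 middle and 3 late genes were called. The late minus early shift then lay between 0.07 and 0.12, and with means over genes it was 0.15. THP3 was called higher with the replicate block (0.33, adjusted p = 0.025), with a term for the arrays numbered 3 (0.33, adjusted p = 0.015) and without those arrays (0.41, adjusted p = 0.020); with each array left out it ranged from 0.15 to 0.58. The array numbers are not known to pair the samples. Deviations of same-numbered arrays correlated at -0.15, -0.03 and 0.61 across genes, and only the arrays numbered 3 correlated best with their own number. With the replicate block AUS1 was called too (adjusted p = 0.029). For the late minus early shift, settings that change only the test have no value of their own.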

Other observations

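Lists of other membrane lipids were measured beside the sterol genes. Of 24 sphingolipid genes 4 were called higher and 2 lower in the deletion-labelled arrays. Outside chromosome X it was 4 and 1 of 23 (17.4% and 4.35%), beside 12.3% and 5.05% of all such genes. YPC1, a ceramidase gene, rose by 0.34 ± 0.06 (limma adjusted p = 0.0067). LCB1, a subunit of the serine palmitoyltransferase that opens the pathway, the elongase gene ELO3 and the ceramide synthase gene LAG1 rose by 0.18 ± 0.04, 0.18 ± 0.04 and 0.19 ± 0.05. LCB3 fell by 0.78 on the log2 scale and lies on chromosome X, and the hydroxylase gene SCS7, on chromosome XIII, fell by 0.19 (adjusted p = 0.038). Of 12 fatty acid genes 2 rose and 2 fell. Without those on chromosome X the counts were 2 and 1 of 11 (18.2% and 9.09%), again beside 12.3% and 5.05%. The acyl-CoA synthetase genes went different ways: FAA1 stood at 12.93, 12.95 and 12.87 in the wild-type-labelled arrays and at 12.45, 12.45 and 12.32 in the deletion-labelled arrays (-0.51 ± 0.05, adjusted p = 0.00072), while FAA2 and FAA3 rose by 0.25 ± 0.05 and 0.24 ± 0.06. The other fall was that of ELO1, on chromosome X (-0.66 ± 0.04).

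Of 21 phospholipid genes 4 rose and 3 fell. Without those on chromosome X the counts were 4 and 0 of 18 (22.2% and 0%), beside 12.3% and 5.05% of all genes outside it. INO2 and INO4, the paired activators of inositol and choline-responsive genes, rose by 0.44 ± 0.10 and 0.26 ± 0.06 (limma adjusted p = 0.017 and 0.019). The 3 falls were INO1, OPI3 and URA8, by 0.90, 0.83 and 0.59 on the log2 scale. All 3 lie on chromosome X, whose median was -0.79. Of other genes known to be regulated by inositol, PSD1 was called higher (0.21 ± 0.05), and ITR1 (0.13 ± 0.05), CHO2 (0.04 ± 0.10) and CHO1 (-0.05 ± 0.04) were not called. Outside chromosome X the list medians were 0.08, -0.01 and 0.08 for sphingolipid, fatty acid and phospholipid genes, against 0.04 for all such genes.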
